A study of Mus musculus with 12 samples.

Results

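Cell cycle genes are described here in lung and mammary epithelial cells of mice: 43 genes of DNA replication and mitosis, taken by symbol from a list. The list holds no measured value, but it was chosen with earlier results of these data known. A probe matched 42 of the 43 genes by its transcript accession (57 probes in all), among 17174 named genes and 32678 features on the array. Gins1, a subunit of the GINS complex that joins the replicative helicase, was not analysed here. Of the 42, 41 were well above background on all 3 arrays of at least 1 group and were tested, and 32 passed that mark on every one of the 12 arrays. The mitotic kinase gene Aurkb was above background on 5 arrays and was not tested.

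The study compared reprogrammed with adult epithelial cells on 12 single-colour arrays, 3 in each of 4 groups. They are reprogrammed lung (replicates 1, 3 and 4), reprogrammed mammary (1, 2 and 3), adult lung (1, 2 and 3) and adult mammary (1, 2 and 4). All are labelled as epithelial cells, and the labels give no strain, genotype or transgene. Adult donors were female mice aged 10 weeks, whose lungs were digested for 45 minutes and washed 7 times and whose mammary glands were digested for 30 minutes and washed 5 times, with no sort of the cells stated. The protocol also describes lungs of E13.5 embryos and mixing of single cells into a basement membrane gel for grafting. It does not say what was grafted for the reprogrammed groups, which organ their name refers to, or whether the arrays of a group hold separate animals. The p-values therefore measure the spread between arrays, which may be technical. In such bulk samples, fewer cells of a type and less RNA per cell cannot be told apart.

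A cell that divides first loads the helicase made of Mcm2 to Mcm7 onto DNA with the help of Cdc6 and Cdt1, and then replicates its genome with deoxynucleotides supplied by ribonucleotide reductase and thymidylate synthase. Cyclin-dependent kinase 1 with cyclin A and cyclin B starts mitosis, in which kinesin motors build the spindle and the spindle checkpoint holds back chromosome separation. Replication genes are classic targets of E2F factors, held in check by the retinoblastoma protein. Mitosis genes are classic targets of a complex called MuvB, which reads a short promoter element named the cell cycle genes homology region (CHR), often beside CCAAT boxes bound by NF-Y. In the resting adult lung and mammary gland, few epithelial cells divide at any time, and these transcripts are used as a measure of proliferation.

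The promoters are shown first, because the members fall into a replication side (19 with a probe: helicase and replication factors, nucleotide supply and G1/S regulators) and a mitosis side (23 with a probe) that are described apart below. RefSeq windows on build GRCm38.p6, from 250 bases before to 50 bases after the gene's start, were at hand for 34 of the 43 members. The CHR word TTTGAA, on either strand, was in 13 of 18 mitosis-side windows (72.2%), in 2 of 16 replication-side windows (12.5%, Mcm2 and Cdc45) and in 18.1% of all 27025 mouse windows. E2F words (TTTCCCGC, TTTCGCGC, TTTGCCGC or TTTGGCGC, on either strand) were in 1 of 18 mitosis-side windows (5.56%, Cdk1), in 6 of 16 replication-side windows (37.5%, Mcm3, Mcm5, Mcm6, Mcm7, Cdt1 and Cdc6) and in 2.32% of all windows. The word CCAAT was in 15 of 18 mitosis-side windows (83.3%), in 9 of 16 replication-side windows (56.2%) and in 37.9% of all windows. A match is a description of these letters, not evidence of a bound site, and windows of neighbouring or divergent genes can overlap. In the 6 windows below, capitals mark these words. E2F words that overlap each other, or that overlap a CCAAT box, run together, as in the capitals TTTGGCGCGAAA of Mcm6. Mcm6 and Mcm5 stand for the replication side with E2F words, Ccnb2 and Plk1 for the mitosis side with CHR words, Cdk1 for the window that holds all 3 kinds, and Pcna for the member that followed the others least once group means were removed.
Mcm6, chr1:128359656-128359955, minus strand: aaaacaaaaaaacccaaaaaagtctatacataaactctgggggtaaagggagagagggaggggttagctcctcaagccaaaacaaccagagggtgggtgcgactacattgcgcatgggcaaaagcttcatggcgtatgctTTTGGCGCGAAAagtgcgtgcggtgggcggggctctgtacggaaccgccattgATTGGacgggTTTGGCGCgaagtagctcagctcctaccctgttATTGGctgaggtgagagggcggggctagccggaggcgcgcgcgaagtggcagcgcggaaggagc
Mcm5, chr8:75109259-75109558, plus strand: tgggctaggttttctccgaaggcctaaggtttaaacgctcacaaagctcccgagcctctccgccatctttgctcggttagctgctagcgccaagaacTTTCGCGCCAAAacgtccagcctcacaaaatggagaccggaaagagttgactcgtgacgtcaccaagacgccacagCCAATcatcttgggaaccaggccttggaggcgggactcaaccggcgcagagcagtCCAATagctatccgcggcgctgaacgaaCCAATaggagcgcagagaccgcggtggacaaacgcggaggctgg
Ccnb2, chr9:70421505-70421804, minus strand: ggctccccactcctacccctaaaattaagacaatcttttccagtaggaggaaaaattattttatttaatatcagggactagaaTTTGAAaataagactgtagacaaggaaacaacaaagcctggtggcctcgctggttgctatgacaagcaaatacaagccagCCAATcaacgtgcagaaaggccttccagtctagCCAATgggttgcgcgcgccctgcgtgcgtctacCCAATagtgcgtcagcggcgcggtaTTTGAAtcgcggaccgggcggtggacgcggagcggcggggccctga
Plk1, chr7:122159185-122159484, plus strand: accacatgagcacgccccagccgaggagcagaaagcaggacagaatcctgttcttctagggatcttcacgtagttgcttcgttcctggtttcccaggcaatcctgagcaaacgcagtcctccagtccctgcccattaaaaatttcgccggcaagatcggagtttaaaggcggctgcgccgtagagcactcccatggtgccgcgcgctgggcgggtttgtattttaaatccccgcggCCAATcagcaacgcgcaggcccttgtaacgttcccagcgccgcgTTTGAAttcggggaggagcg
Cdk1, chr10:69352863-69353162, minus strand: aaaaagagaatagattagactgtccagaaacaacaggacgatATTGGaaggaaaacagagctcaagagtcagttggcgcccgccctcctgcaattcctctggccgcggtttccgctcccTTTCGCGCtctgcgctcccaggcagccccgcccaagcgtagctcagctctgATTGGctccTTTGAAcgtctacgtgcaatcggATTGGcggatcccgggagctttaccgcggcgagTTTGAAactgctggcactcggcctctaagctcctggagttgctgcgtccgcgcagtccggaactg
Pcna, chr2:132253131-132253430, minus strand: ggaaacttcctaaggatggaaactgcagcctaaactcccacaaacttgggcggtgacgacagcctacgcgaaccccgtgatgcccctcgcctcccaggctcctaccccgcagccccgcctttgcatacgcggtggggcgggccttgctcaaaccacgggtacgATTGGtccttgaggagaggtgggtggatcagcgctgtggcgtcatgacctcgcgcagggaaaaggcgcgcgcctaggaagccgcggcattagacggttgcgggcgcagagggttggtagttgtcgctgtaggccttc

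All levels below are log2 signals relative to the array's own 75th percentile of signal, so 0 is that percentile, and levels of different genes are not compared. Cell cycle genes varied together and differed between arrays of 1 group. The median level over the 42 genes was -0.77, -2.14 and -2.16 on reprogrammed lung replicates 1, 3 and 4, and -0.98, -0.46 and -1.67 on reprogrammed mammary replicates 1, 2 and 3. It was -2.16, -1.55 and -1.48 on adult lung replicates 1, 2 and 3, and -2.19, -0.46 and 0.18 on adult mammary replicates 1, 2 and 4. High arrays were thus found in 3 of the 4 groups, and adult mammary held both the lowest and the highest of the 12 medians. Adult mammary replicate 4 was the highest array for 33 of the 42 genes and adult lung replicate 1 the lowest for 22. The order within adult mammary was the same with normexp background correction, with quantile normalization and in the authors' deposited log2 values, where replicate 4 exceeded replicate 1 by 1.67, 2.27 and 1.84.

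**Figure D1:**
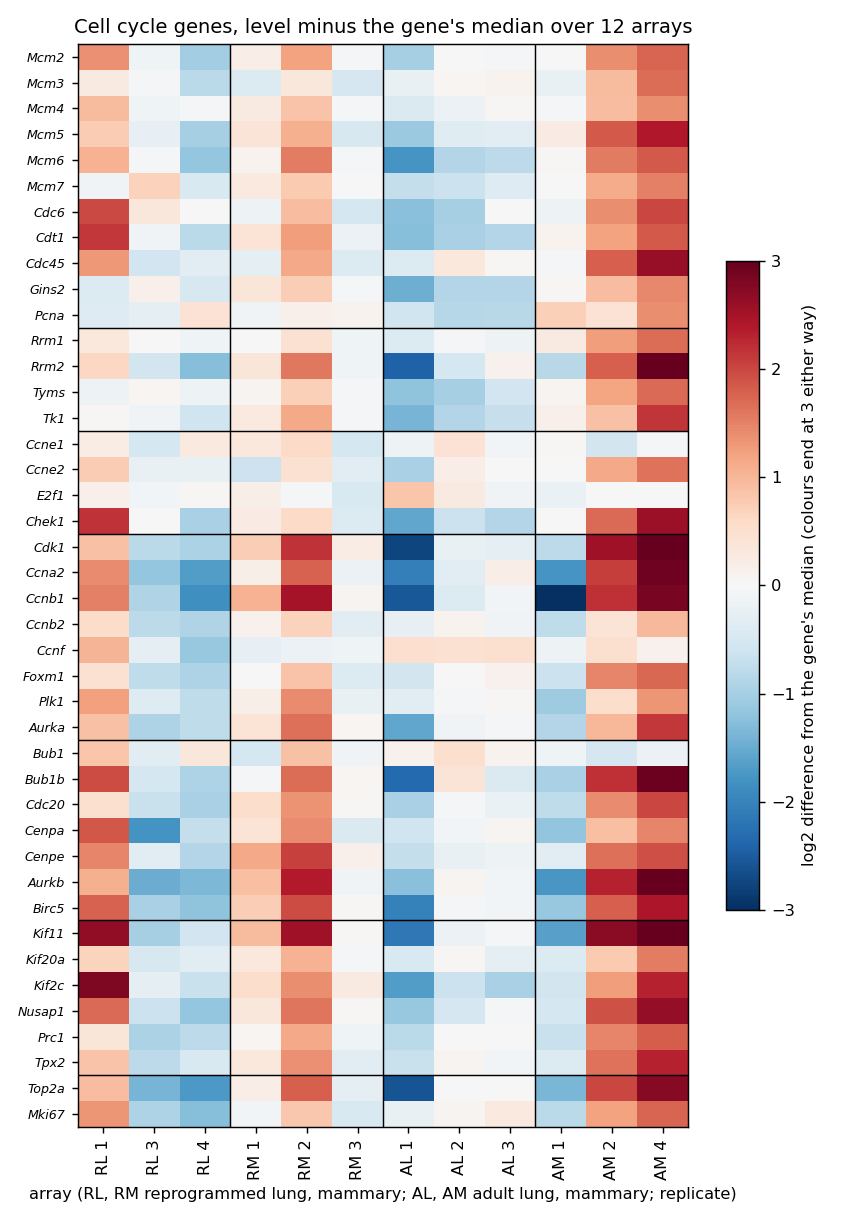
Heatmap of the 42 cell cycle genes (rows, grouped by role with black lines) on the 12 arrays (columns), as the log2 level minus the gene's own median over the arrays; red is higher, blue lower, and colours end at -3 and 3. Adult mammary replicates 2 and 4, reprogrammed mammary replicate 2 and reprogrammed lung replicate 1 are red over most rows, and adult mammary replicate 1 is not.

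Within adult mammary, replicate 2 exceeded replicate 1 for 39 of 42 genes with a median log2 difference of 1.65, and replicate 4 exceeded it for 40 of 42 with a median of 2.32. More than 2-fold differences were found for 33 and 37 of the genes, against 3.94% and 11.9% of all features for the same pairs of arrays. The median of the mitosis side (2.11 and 2.77) was larger than that of the replication side (1.11 and 1.74). Reprogrammed lung replicate 1 exceeded replicates 3 and 4 by medians of 1.42 and 1.81. On these pairs 32 and 31 of the 42 genes were more than 2-fold higher, as were 25.0% and 27.4% of all features. Reprogrammed mammary replicate 2 exceeded replicates 1 and 3 by medians of 0.94 and 1.29. There 20 and 30 of the 42 genes were more than 2-fold higher, against 5.04% and 6.51% of all features. Adult lung replicates 2 and 3 exceeded replicate 1 by 0.62 and 0.67, and differed from each other by a median of 0.03. These differences lie between single arrays of 1 group and have no replicate check.

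The arrays themselves were unlike in places. Probes well above background made up 91.2% on reprogrammed lung replicate 1, 89.2% on adult mammary replicate 4 and 72.1% to 77.8% on the other 10 arrays. The spread of log2 signal between its lower and upper 10% points was also narrow on that pair, at 6.10 and 7.11, against 8.46 to 9.13 on the rest. Adult mammary replicate 2, which also had high cell cycle genes, had 73.9% of probes above background and a spread of 8.86. The tissue labels were set against marker lists. Alveolar type II markers, which make surfactant, had medians of 2.53 to 2.73 on adult lung arrays and of -2.93 to -1.20 on all others, reprogrammed lung included. Mammary luminal markers had medians of -0.19 to 2.82 in reprogrammed lung, 2.48 to 3.18 in reprogrammed mammary, -4.21 to -3.58 in adult lung and 1.01 to 2.26 in adult mammary. The arrays labelled reprogrammed lung thus carried mammary and not alveolar markers, and their name is used below as a label only.

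Mcm2, Mcm5, Mcm6 and Mcm7 are subunits of the replicative helicase, and all 4 were highest on adult mammary replicate 4. Mcm2 stood at 0.71, -0.80 and -1.71 in reprogrammed lung, -0.46, 0.53 and -0.71 in reprogrammed mammary, -1.66, -0.68 and -0.73 in adult lung and -0.64, 0.73 and 1.09 in adult mammary. Mcm5, with E2F words in its window above, stood at -0.46, -1.48 and -2.22 in reprogrammed lung, -0.83, -0.15 and -1.72 in reprogrammed mammary, -2.34, -1.58 and -1.57 in adult lung and -0.98, 0.62 and 1.17 in adult mammary. Mcm6 stood at 2.00, 0.90 and -0.21 in reprogrammed lung, 1.05, 2.48 and 0.88 in reprogrammed mammary, -0.82, 0.06 and 0.16 in adult lung and 0.99, 2.50 and 2.80 in adult mammary. In each of the 3, all adult lung arrays lay below all adult mammary arrays, in Mcm2 narrowly, with a highest adult lung level of -0.68 and a lowest adult mammary level of -0.64. Such a lack of overlap, in either direction, was found for 13 of the 41 members tested and for 52.8% of all features. Mcm7 stood at 1.25, 2.05 and 0.89 in reprogrammed lung, 1.65, 2.15 and 1.36 in reprogrammed mammary, 0.65, 0.72 and 0.97 in adult lung and 1.35, 2.46 and 2.87 in adult mammary, again with every adult lung array below every adult mammary array. The helicase subunits Mcm3 and Mcm4 ranged over 2.47 and 1.83 log2 units across the 12 arrays, with overlapping groups in both.

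Cdt1 loads the helicase, Gins2 is a GINS subunit and Pcna is the sliding clamp of the polymerases. Cdt1 stood at 2.28, 0.06 and -0.64 in reprogrammed lung, 0.56, 1.41 and -0.02 in reprogrammed mammary, -1.11, -0.82 and -0.71 in adult lung and 0.26, 1.36 and 2.00 in adult mammary. Gins2 stood at 0.58, 1.14 and 0.52 in reprogrammed lung, 1.36, 1.73 and 0.95 in reprogrammed mammary, -0.48, 0.12 and 0.12 in adult lung and 1.04, 1.92 and 2.44 in adult mammary. Pcna stood at 1.73, 1.84 and 2.54 in reprogrammed lung, 2.01, 2.27 and 2.22 in reprogrammed mammary, 1.52, 1.27 and 1.29 in adult lung and 2.83, 2.54 and 3.51 in adult mammary. All 3 were lower on every adult lung array than on any adult mammary array, where 52.8% of all features did not overlap in either direction. In Pcna, adult mammary replicate 1 exceeded replicate 2 and reprogrammed lung replicate 4 exceeded replicate 1, an order also found in the brighter probe of Ccne1. The loading factor gene Cdc6 was above background on 7 arrays, and Cdc45, a helicase cofactor, ranged over 3.17 log2 units with its highest level on adult mammary replicate 4.

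Among the genes of nucleotide supply, Tyms (thymidylate synthase) stood at -0.82, -0.61 and -0.83 in reprogrammed lung, -0.59, 0.06 and -0.72 in reprogrammed mammary, -1.87, -1.66 and -1.25 in adult lung and -0.59, 0.50 and 1.04 in adult mammary. Tk1 (thymidine kinase) stood at 0.11, -0.02 and -0.51 in reprogrammed lung, 0.37, 1.22 and 0.05 in reprogrammed mammary, -1.32, -0.81 and -0.61 in adult lung and 0.22, 0.96 and 2.24 in adult mammary. Rrm1, the large subunit of ribonucleotide reductase, stood at -0.67, -0.99 and -1.12 in reprogrammed lung, -0.98, -0.53 and -1.13 in reprogrammed mammary, -1.39, -1.04 and -1.15 in adult lung and -0.72, 0.27 and 0.68 in adult mammary. Each of the 3 was lower on all adult lung arrays than on any adult mammary array. That lack of overlap, in either direction, was shared by 52.8% of all features. Rrm2, the small subunit whose level follows S phase, was above background on 8 arrays and stood at -3.57, -4.75 and -5.47 in reprogrammed lung, -3.83, -2.61 and -4.32 in reprogrammed mammary, -6.62, -4.73 and -4.08 in adult lung and -5.03, -2.40 and -1.17 in adult mammary, with overlap between the groups. The checkpoint kinase gene Chek1 stood at -2.35, -4.50 and -5.48 in reprogrammed lung, -4.26, -3.94 and -4.93 in reprogrammed mammary, -6.06, -5.15 and -5.40 in adult lung and -4.53, -2.82 and -1.94 in adult mammary, and no adult lung array was above background for it.

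Cyclin E1 (Ccne1) and the transcription factor E2f1 act at the entry into S phase, and by their brighter probes neither followed the other genes within adult mammary. The brighter probe of Ccne1 stood at -0.81, -1.56 and -0.75 in reprogrammed lung, -0.73, -0.45 and -1.57 in reprogrammed mammary, -1.18, -0.61 and -1.13 in adult lung and -1.01, -1.59 and -1.07 in adult mammary. The brighter probe of E2f1 stood at -0.55, -0.78 and -0.66 in reprogrammed lung, -0.51, -0.74 and -1.15 in reprogrammed mammary, 0.15, -0.42 and -0.80 in adult lung and -0.89, -0.66 and -0.71 in adult mammary. Each gene had another, dimmer probe that went with the other members, as did the checkpoint kinase gene Bub1. For Bub1, the brighter probe gave -1.66, -2.84 and -2.17 in reprogrammed lung, -3.03, -1.63 and -2.60 in reprogrammed mammary, -2.36, -2.03 and -2.39 in adult lung and -2.63, -3.00 and -2.67 in adult mammary. The dimmer Bub1 probe, above background on 8 arrays, gave -1.87, -5.03 and -6.22 in reprogrammed lung, -3.61, -2.17 and -3.90 in reprogrammed mammary, -5.54, -3.69 and -3.80 in adult lung and -5.63, -1.25 and -0.97 in adult mammary. The mean of adult mammary replicates 2 and 4 minus replicate 1 was thus -0.21 by the brighter probe and 4.52 by the dimmer one. The brighter probes were used in the tests, as for all genes. For Ccne1 the dimmer probe gave 1.28 for this difference, against -0.33 for the brighter, and for E2f1 1.42 against 0.20. The probes also disagreed on adult lung minus adult mammary. The brighter and dimmer probes gave 0.25 and -1.80 for Ccne1, 0.51 and -1.72 for Bub1, and 0.40 and -0.61 for E2f1. The dimmer probes were not tested alone. Ccne2 (cyclin E2), with brighter and dimmer probes at r = 0.78, went with the rest.

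**Figure D2:**
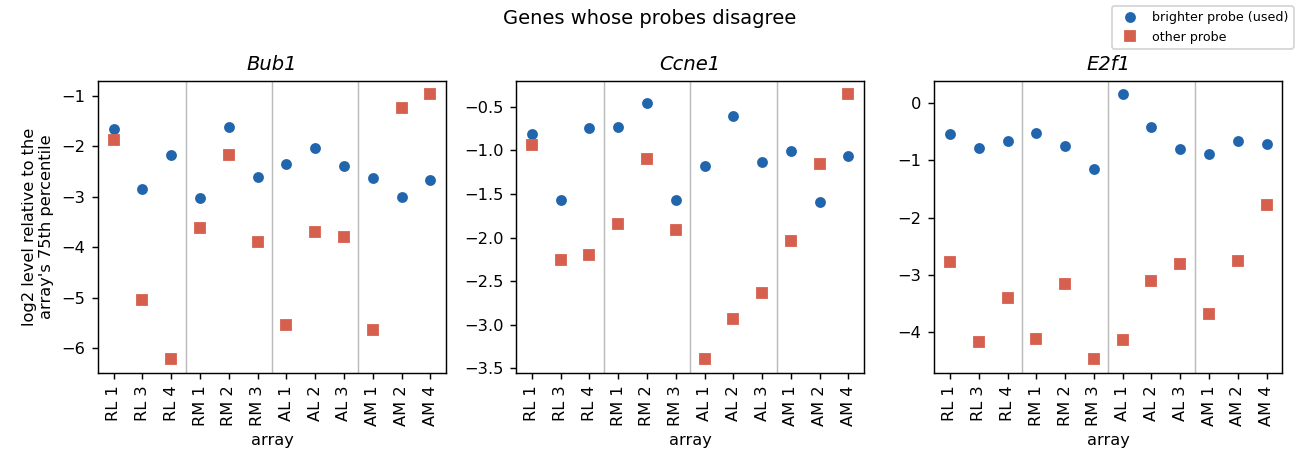
Level of each of the 2 probes of Bub1, Ccne1 and E2f1 on the 12 arrays, as log2 signal relative to the array's 75th percentile; circles are the brighter probe, used in the tests, and squares the dimmer probe (RL and RM, reprogrammed lung and mammary; AL and AM, adult lung and mammary; the digit is the replicate). The mean of adult mammary replicates 2 and 4 minus replicate 1 is 4.52, 1.28 and 1.42 for the squares and -0.21, -0.33 and 0.20 for the circles.

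Several genes that start mitosis spread widely within groups. Cdk1, whose window above holds CHR, CCAAT and E2F words, stood at -3.14, -4.82 and -4.98 in reprogrammed lung, -3.30, -1.85 and -3.80 in reprogrammed mammary, -6.77, -4.25 and -4.29 in adult lung and -4.81, -1.48 and -0.57 in adult mammary. Its partner Ccna2 (cyclin A2) stood at -2.04, -4.63 and -5.13 in reprogrammed lung, -3.28, -1.69 and -3.63 in reprogrammed mammary, -5.51, -3.79 and -3.25 in adult lung and -5.22, -1.39 and -0.54 in adult mammary. Ccnb1 (cyclin B1) stood at -2.78, -5.18 and -6.14 in reprogrammed lung, -3.25, -1.79 and -4.21 in reprogrammed mammary, -6.82, -4.71 and -4.36 in adult lung and -7.27, -2.10 and -1.44 in adult mammary. In all 3, adult mammary replicate 1 lay at least 3.33 log2 units below replicates 2 and 4. These genes were above background on 10, 9 and 8 of the 12 arrays, so the lowest levels carry little information. Foxm1, a transcription factor of the G2 phase, stood at 0.22, -1.01 and -1.16 in reprogrammed lung, -0.26, 0.61 and -0.66 in reprogrammed mammary, -0.79, -0.23 and -0.13 in adult lung and -0.88, 1.22 and 1.48 in adult mammary. Plk1 (polo-like kinase 1) stood at 0.18, -1.43 and -1.82 in reprogrammed lung, -0.87, 0.36 and -1.27 in reprogrammed mammary, -1.38, -1.08 and -1.02 in adult lung and -2.12, -0.52 and 0.27 in adult mammary. Both had adult mammary replicate 1 below replicates 2 and 4, and reprogrammed lung replicate 1 above replicates 3 and 4. The kinase gene Aurka, cyclin B2 (Ccnb2) and cyclin F (Ccnf) ranged over 3.68, 1.87 and 2.15 log2 units. Ccnf was higher on every adult lung array than on any reprogrammed mammary array, groups that did not overlap for 56.9% of all features.

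Birc5 (survivin) and Aurkb are subunits of the chromosomal passenger complex, which corrects faulty spindle attachments. Birc5 stood at 2.99, 0.24 and -0.00 in reprogrammed lung, 1.96, 3.17 and 1.24 in reprogrammed mammary, -0.81, 1.19 and 1.14 in adult lung and 0.07, 3.00 and 3.63 in adult mammary. Aurkb stood at -4.27, -6.84 and -6.69 in reprogrammed lung, -4.44, -2.95 and -5.45 in reprogrammed mammary, -6.59, -5.24 and -5.43 in adult lung and -7.08, -3.04 and -2.07 in adult mammary, and was above background on 5 arrays. Both had their highest level on adult mammary replicate 4. Kif11 is the motor that pushes the spindle poles apart, and it stood at -0.79, -4.46 and -4.02 in reprogrammed lung, -2.51, -0.91 and -3.43 in reprogrammed mammary, -5.60, -3.64 and -3.48 in adult lung and -5.08, -0.76 and -0.22 in adult mammary. Top2a, which untangles DNA, stood at 0.37, -1.95 and -2.28 in reprogrammed lung, -0.35, 1.25 and -0.84 in reprogrammed mammary, -3.14, -0.53 and -0.58 in adult lung and -1.92, 1.46 and 2.18 in adult mammary. Mki67, the source of the Ki-67 proliferation antigen, stood at 0.68, -1.56 and -1.92 in reprogrammed lung, -0.72, 0.16 and -1.09 in reprogrammed mammary, -0.85, -0.54 and -0.33 in adult lung and -1.44, 0.58 and 1.12 in adult mammary. Top2a had the widest range, 5.32 log2 units, of the 32 genes above background on all arrays. The other genes of this side (Bub1b, Cdc20, Cenpa, Cenpe, Kif20a, Kif2c, Nusap1, Prc1 and Tpx2) all had adult mammary replicate 1 below replicates 2 and 4.

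**Figure D3:**
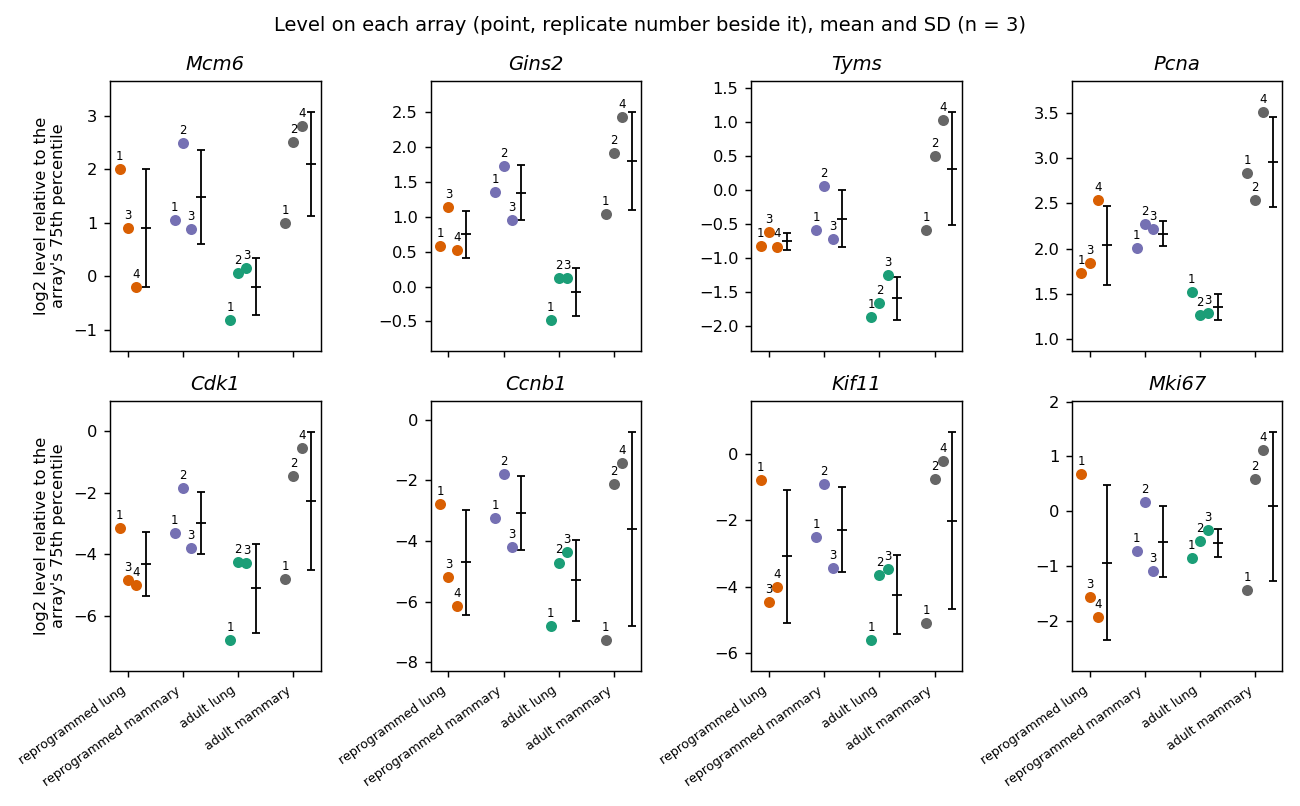
Level of 8 genes on each array as log2 signal relative to the array's 75th percentile (points, replicate number beside each), with the mean and SD of the 3 arrays of a group (bars). Adult lung lies below adult mammary without overlap in the upper row (Mcm6, Gins2, Tyms, Pcna), as these groups did not overlap for 52.8% of all features in either direction. Adult mammary replicate 1 lies far below replicates 2 and 4 in the lower row (Cdk1, Ccnb1, Kif11, Mki67).

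With the group means removed, each gene was set against the median of the other members over the 12 arrays. Pearson's r was over 0.8 for 34 of the 42 genes, with a median of 0.95, against 4.82% of all 24196 features with complete values and a median of 0.20. The arrays share their scaling and all genes of an array share its RNA, so this is a description without a test. The lowest were Pcna (r = -0.03), E2f1 (0.13), Ccne1 (0.27), Bub1 (0.45) and Ccnf (0.62). The dimmer probes of Bub1, Ccne1 and E2f1 reached 0.97, 0.97 and 0.89. Pcna had 1 probe.

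Adult lung was compared with adult mammary to ask how the adult groups differed. All 10 members that passed the test were lower in adult lung, and all belong to the replication side. Differences are log2, adult lung minus adult mammary, with the group means ± SD (n = 3 each) where given. The clamp gene Pcna averaged 1.36 ± 0.14 in adult lung and 2.96 ± 0.50 in adult mammary, a difference of -1.60 ± 0.28 (SE; limma adjusted p = 0.00194), or 3.03-fold. Gins2 averaged -0.08 ± 0.35 in adult lung and 1.80 ± 0.70 in adult mammary and differed by -1.88 ± 0.36 (SE; limma adjusted p = 0.0034). Tyms averaged -1.59 ± 0.31 in adult lung and 0.32 ± 0.83 in adult mammary and differed by -1.91 ± 0.37 (SE; limma adjusted p = 0.00388). These 3 genes stayed past the threshold when any 1 array was left out and under every other alternative tried. Tk1 differed by -2.05 ± 0.48 (SE; limma adjusted p = 0.00918) and lost its call only with slide as a block. Rrm1 (-1.27), Mcm7 (-1.45), Mcm6 (-2.30), Mcm5 (-2.10) and Cdt1 (-2.09) had adjusted p from 0.015 to 0.0466. Their calls were lost for 3, 4, 4, 5 and 9 of the 12 arrays left out, in that order. Chek1 was at least 3.56-fold lower in adult lung, with measured means of -5.54 in adult lung and -3.10 in adult mammary (limma adjusted p = 0.0422). That bound sets each adult lung array at the lowest level marked above background there. The Chek1 difference was 0.02 with normexp background correction, and its call was lost for 9 of the 12 arrays left out.

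Of the 41 members tested, 10 (24.4%) were lower and 0 higher, against 15.9% lower and 12.5% higher among the 24497 features tested, so either direction was called for 28.5% of the background. The median difference over the members was -1.45, against 0.00 over all features. On the replication side 10 of 19 passed, with a median difference of -1.60 and a median SE of 0.48. On the mitosis side 0 of 22 passed (2 at an unadjusted p under 0.05), with a median difference of -1.36 and a median SE of 0.77. Whether the sides differ was not tested. Cdk1 differed by -2.82 ± 1.09 (SE; limma adjusted p = 0.0788), Kif11 by -2.22 ± 1.35 (SE; limma adjusted p = 0.251) and Mki67 by -0.67 ± 0.75 (SE; limma adjusted p = 0.55). The dimmer probes of these genes gave -1.17, -1.65 and -1.72, and were above background on 2, 10 and 12 arrays, in that order. Groups did not overlap for 13 members, against 52.8% of all features. Without adult mammary replicate 1, 30 members were called, 16 on the replication and 14 on the mitosis side, with the 10 above among them. Without adult mammary replicate 2, without adult mammary replicate 4 or without adult lung replicate 1, the calls were 4 (Pcna, Gins2, Tyms and Tk1). On the 1 slide that held both groups, adult lung replicate 1 was below adult mammary replicate 2 for 38 of 42 members. The median there was -2.37, against 0.08 over all features. With slide as a block, 6 members were called, namely Tyms, Mcm6, Pcna, Gins2, Cdc6 and Ccne2. Of these, 4 were among the 10 above, and Cdc6 and Ccne2 were not. Markers of other cell types differed between the same groups. Of 12 pan-epithelial markers, 9 were lower in adult lung (median difference -2.21), and their summed signal, in multiples of the array's 75th percentile, was 28.3 to 36.3 in adult lung and 222 to 286 in adult mammary. Of 12 endothelial markers, 10 were higher in adult lung (2.51), with sums of 189 to 220 in adult lung and 31.3 to 69.9 in adult mammary. At least 11 of the pan-epithelial and all 12 endothelial markers were above background on each of these arrays, and the part of cell makeup in the cell cycle differences was not tested.

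**Figure D4:**
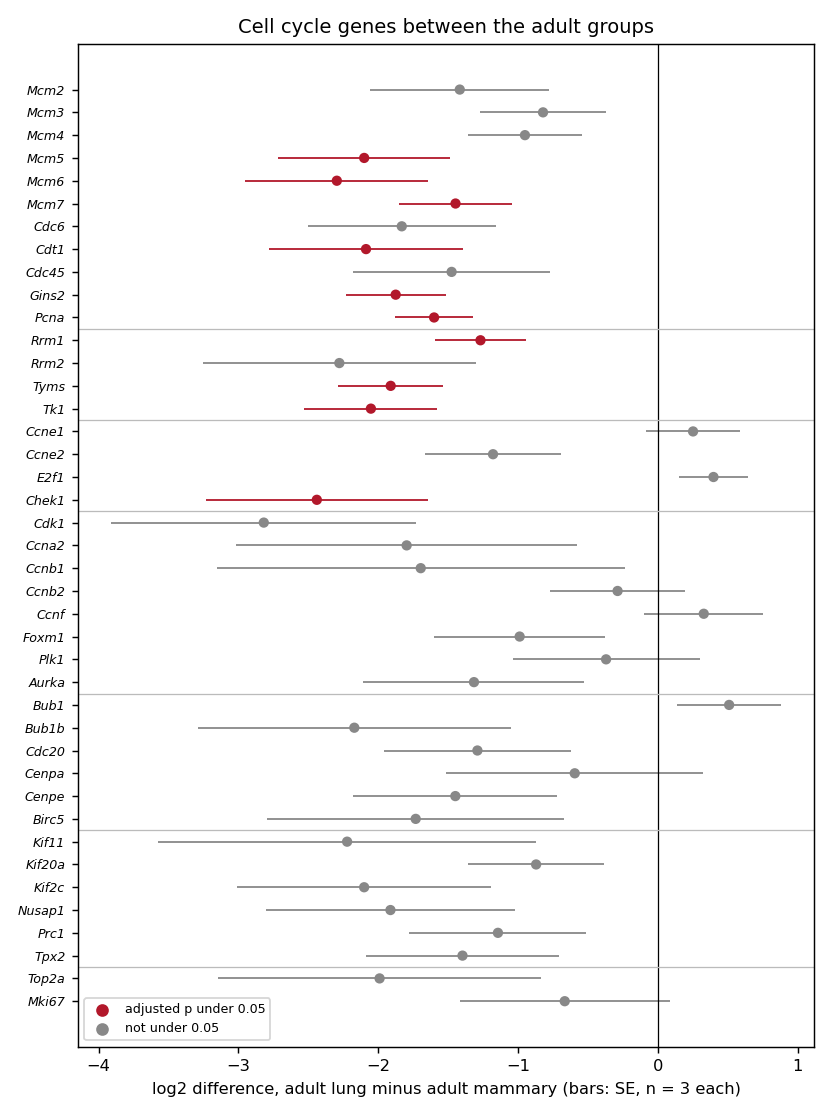
Log2 difference of adult lung minus adult mammary for the 41 tested members, grouped by role from replication (top) to mitosis (bottom), with standard errors (n = 3 arrays each); red marks an adjusted p under 0.05. The red points are all on the replication side, and the bars of the mitosis side are wider.

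Reprogrammed lung was then compared with adult lung. No member passed the test, against 23.4% of all features (14.1% higher and 9.31% lower), and 4 had an unadjusted p under 0.05. Pcna averaged 2.04 ± 0.44 in reprogrammed lung and 1.36 ± 0.14 in adult lung, a difference of 0.68 ± 0.28 (SE; limma adjusted p = 0.107). Gins2 differed by 0.83 ± 0.36 (SE; limma adjusted p = 0.129), Tyms by 0.84 ± 0.37 (SE; limma adjusted p = 0.14) and Cdc6 by 1.50 ± 0.67 (SE; limma adjusted p = 0.14). In Pcna, Gins2, Tyms, Cdt1 and Tk1, all reprogrammed lung arrays lay above all adult lung arrays, as did 36.2% of features in either direction. The median difference over the members was 0.43, and -0.23 without reprogrammed lung replicate 1. Ccnf was called without that array, and Tyms without adult mammary replicate 1. Within the 3 slides that held both groups, the median was 0.56 (replicate 3 minus replicate 1), 0.96 (replicate 1 minus replicate 3) and -0.63 (replicate 4 minus replicate 2). Over all features these pairs had medians of 0.01, 0.34 and -0.08.

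Reprogrammed mammary was compared with adult mammary in the same way. No member passed, against 0.00408% of all features, and 2 members had an unadjusted p under 0.05. Rrm1 averaged -0.88 ± 0.31 in reprogrammed mammary and 0.08 ± 0.72 in adult mammary, a difference of -0.96 ± 0.33 (SE; limma adjusted p = 0.369). Pcna differed by -0.79 ± 0.28 (SE; limma adjusted p = 0.378), and was the only member whose groups did not overlap (23.2% of all features). The median difference over the members was -0.55, and ran from -1.19 without adult mammary replicate 1 to -0.05 without adult mammary replicate 4. Within slides it had opposite signs. Reprogrammed mammary replicate 1 exceeded adult mammary replicate 1 for 33 of 42 members (median 0.67), whereas replicate 3 lay below adult mammary replicate 4 for 41 of 42 (median -2.03). Over all features these pairs had medians of 0.06 and -0.07.

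Reprogrammed mammary was higher than adult lung for 3 members, Gins2, Tyms and Tk1 (7.32% of 41, against 14.9% of all features higher and 26.1% in either direction). Gins2 differed by 1.43 ± 0.36 (SE; limma adjusted p = 0.0143), Tyms by 1.17 ± 0.37 (SE; limma adjusted p = 0.0415) and Tk1 by 1.46 ± 0.48 (SE; limma adjusted p = 0.0451). Groups did not overlap for 18 members, against 56.9% of all features. These calls ranged from 0 to 7 when 1 array was left out. They were 0 without adult lung replicate 1 and without reprogrammed mammary replicate 2, 7 without reprogrammed lung replicate 1, and 0 with slide as a block. On the shared slide, reprogrammed mammary replicate 2 exceeded adult lung replicate 2 for 40 of 42 members, with a median of 1.43 (all features 0.05).

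No member passed between reprogrammed lung and adult mammary (0.0122% of all features), where 6 had an unadjusted p under 0.05 and the median difference was -1.01 (-1.71 without adult mammary replicate 1, -1.65 without reprogrammed lung replicate 1, -0.65 without reprogrammed lung replicate 4 and -0.51 without adult mammary replicate 4). Pcna differed by -0.92 ± 0.28 (SE; limma adjusted p = 0.272) there. On the shared slide, reprogrammed lung replicate 3 lay below adult mammary replicate 2 for 40 of 42 members (median -1.64, all features 0.09). None passed between reprogrammed lung and reprogrammed mammary either (0.00408% of all features, and 0 members at an unadjusted p under 0.05). The median was -0.49, and ran from -1.02 without reprogrammed lung replicate 1 to -0.11 without reprogrammed mammary replicate 2. On their shared slide, reprogrammed lung replicate 4 lay below reprogrammed mammary replicate 2 for 40 of 42 members (median -1.98, all features -0.09). With 3 arrays a group and spreads such as those of Kif11 (SD 2.00 in reprogrammed lung and 1.28 in reprogrammed mammary), a missed threshold does not show equal levels. For the change from adult to reprogrammed, the difference between the organ labels passed for Pcna alone, at a log2 difference of 1.47 ± 0.39 (SE; limma adjusted p = 0.0346). Of all features, 12.8% passed (7.41% with a positive and 5.39% with a negative difference). Replication-side members had a median of 1.37 (17 positive, 2 negative) with a median SE of 0.67, and mitosis-side members a median of 0.40. The median over all features was 0.07. The Pcna difference was thus near the median of its side, and its SE was smaller. The Pcna call was lost for 8 of the 12 arrays left out (adjusted p up to 0.0877), with slide as a block (0.0701), with a replicate block (0.117) and with no filter on dim probes (0.0592). These comparisons share groups, so the values of a gene in one are not independent of those in another.

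Other genes of the pathway were read from lists written from textbook knowledge, with 39 other replication genes, 44 other mitosis genes, 21 retinoblastoma and E2F factors and 21 cell cycle inhibitors tested. Of the other replication genes, 14 (35.9%) were lower and 0 higher in adult lung than in adult mammary, against 15.9% and 12.5% of all features, with a median of -1.23. Rfc4, a subunit of the clamp loader, stood at 0.05, -0.85 and -1.07 in reprogrammed lung, -0.98, -0.58 and -1.26 in reprogrammed mammary, -2.10, -1.74 and -2.15 in adult lung and -0.43, -0.41 and -0.18 in adult mammary, and differed by -1.66 ± 0.29 (SE; limma adjusted p = 0.00209). All adult lung arrays lay below all others. The maintenance DNA methyltransferase Dnmt1 (-1.17), the primase subunits Prim2 (-1.76) and Prim1 (-1.86) and the fork protein Wdhd1 (-1.45) were lower in adult lung too, with adjusted p from 0.00405 to 0.0168. In reprogrammed lung, Rfc4 (1.37), Prim2 (1.80) and Rpa3 (1.00), a subunit of the single-strand binding protein, were higher than in adult lung, and 0 of the 39 were lower. These 3 are 7.69% of the list, against 14.1% of all features higher there.

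Of the other mitosis genes, 5 (11.4%) were lower and 0 higher in adult lung than in adult mammary, with a median of -1.42. That share is below the 15.9% of all features called lower. The 5 were Cks1b (-2.14) and Cks2 (-2.04), small subunits bound to cyclin-dependent kinases, the checkpoint genes Mad2l1 (-1.83) and Trip13 (-1.42), and Ube2s (-0.81), a ubiquitin-conjugating enzyme of the anaphase-promoting complex. Cks1b stood at 0.85, 0.78 and 0.79 in reprogrammed lung, 1.39, 1.69 and 1.13 in reprogrammed mammary, -1.50, -0.51 and -0.43 in adult lung and 0.54, 1.83 and 1.61 in adult mammary, and was higher in reprogrammed lung than in adult lung by 1.62 ± 0.36 (SE; limma adjusted p = 0.00902). Stmn1, a microtubule-destabilising protein, was lower in reprogrammed lung than in adult lung (-1.76, limma adjusted p = 0.0156). Of the 44 genes of this list, 1 (2.27%) was higher and 1 (2.27%) lower there, against 14.1% and 9.31% of all features. No gene of the 4 lists passed between reprogrammed mammary and adult mammary, where 0.00408% of all features did.

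Of the retinoblastoma and E2F factors, 3 (14.3%) were higher and 5 (23.8%) lower in adult lung than in adult mammary, against 12.5% and 15.9% of all features. Ccnd2 (cyclin D2, an activator of the G1 kinases) was higher, by 1.15 ± 0.15 (SE; limma adjusted p = 0.00048), as was Ccnd3 (0.88). E2f3 (-1.25), the E2F partner Tfdp1 (-1.02) and Lin9 (-1.73), a subunit of MuvB, were lower. Ccnd2 stood at 2.75, 2.62 and 2.66 in reprogrammed lung, 2.68, 2.86 and 2.62 in reprogrammed mammary, 3.39, 3.74 and 3.58 in adult lung and 2.36, 2.57 and 2.33 in adult mammary, with all adult lung arrays above all others. In reprogrammed lung against adult lung, 1 (4.76%) was higher and 5 (23.8%) lower, against 14.1% and 9.31% of all features. Ccnd2 (-0.90), Cdk6 (-1.24), Ccnd3 (-0.90) and Tfdp2 (-0.92) were among the 5 lower there, and Lin9 (1.37) was higher. Rb1, the retinoblastoma gene, and its relative Rbl1 differed by -0.14 and -0.42 between adult lung and adult mammary, with adjusted p of 0.755 and 0.631. Ccnd1 was not analysed here.

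Of the inhibitors and antiproliferative genes, 2 (9.52%) were higher and 6 (28.6%) lower in adult lung than in adult mammary, against 12.5% and 15.9% of all features. In reprogrammed lung against adult lung, 7 (33.3%) were higher and 1 (4.76%) lower, against 14.1% and 9.31% of all features. Cdkn2b, the inhibitor p15 of the G1 kinases, was higher in adult lung than in adult mammary (3.31, limma adjusted p = 1.72e-04) and lower in reprogrammed lung than in adult lung (-1.88, adjusted p = 0.00434). Gadd45g (1.90) and Plk2 (0.87), both stress-responsive genes, and Btg1 (1.19) and Tob2 (1.08), of an antiproliferative family, were higher in reprogrammed lung than in adult lung. Cdkn1a, the inhibitor p21, stood at 2.46, 2.13 and 3.07 in reprogrammed lung, 2.38, 2.35 and 2.47 in reprogrammed mammary, 4.08, 3.31 and 3.33 in adult lung and 3.61, 2.35 and 1.97 in adult mammary. Within adult mammary its highest level was on replicate 1, where the cycle genes were lowest. Other groups did not share this order. In reprogrammed lung, Cdkn1a was highest on replicate 4 and lowest on replicate 3, both with low cycle genes. Cdkn1a did not pass in adult lung against adult mammary (0.93, limma adjusted p = 0.114). Cdkn1b, Cdkn1c and Cdkn2c differed there by -0.16, 0.95 and 0.20, with adjusted p from 0.103 to 0.631.

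Markers of other cell types moved with some of the high arrays. The 12 B cell markers had medians of 3.01, -3.52 and -3.22 in reprogrammed lung, -0.98, 0.36 and -3.69 in reprogrammed mammary, -2.14, -2.13 and -2.12 in adult lung and -3.55, -4.15 and 0.12 in adult mammary. Their summed signal, in multiples of the array's 75th percentile, ran from 2.42 to 156 in reprogrammed lung, 2.44 to 25.6 in reprogrammed mammary, 6.27 to 7.83 in adult lung and 2.15 to 14.5 in adult mammary. Between 7 and 12 of the 12 were above background on any array. The defining B cell gene Ms4a1 was above background on 7 arrays, all 3 of adult lung included. The 11 T and NK cell markers had medians of -0.48, -3.64 and -3.39 in reprogrammed lung, -2.00, 0.10 and -3.25 in reprogrammed mammary, -0.97, -0.49 and -0.80 in adult lung and -3.44, -3.19 and -0.74 in adult mammary. Their summed signal ran from 1.16 to 22.2 in reprogrammed lung, 1.21 to 27.6 in reprogrammed mammary, 6.82 to 11.2 in adult lung and 1.30 to 17.8 in adult mammary, with 7 to 11 of the 11 above background.

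Within their groups, lymphocyte markers were thus high on reprogrammed lung replicate 1, reprogrammed mammary replicate 2 and adult mammary replicate 4. Cell cycle genes were high on these arrays too. Lymphocyte markers were low on adult mammary replicate 2, where 39 of 42 cell cycle genes exceeded replicate 1. All adult lung arrays had more lymphocyte signal than adult mammary replicates 1 and 2. Their T and NK medians (-0.97 to -0.49) were near those of reprogrammed lung replicate 1 (-0.48) and adult mammary replicate 4 (-0.74). Yet cell cycle medians in adult lung were only -2.16 to -1.48. Those 2 other arrays also had the most probes above background, 91.2% and 89.2%. Pan-epithelial markers had a median of 0.05 on reprogrammed lung replicate 1, 2.22 to 3.33 on the other reprogrammed arrays, 0.41 to 0.79 on adult lung arrays and 2.70 to 3.29 on adult mammary arrays. The part of these cell types in the cell cycle levels was not tested.

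**Figure D5:**
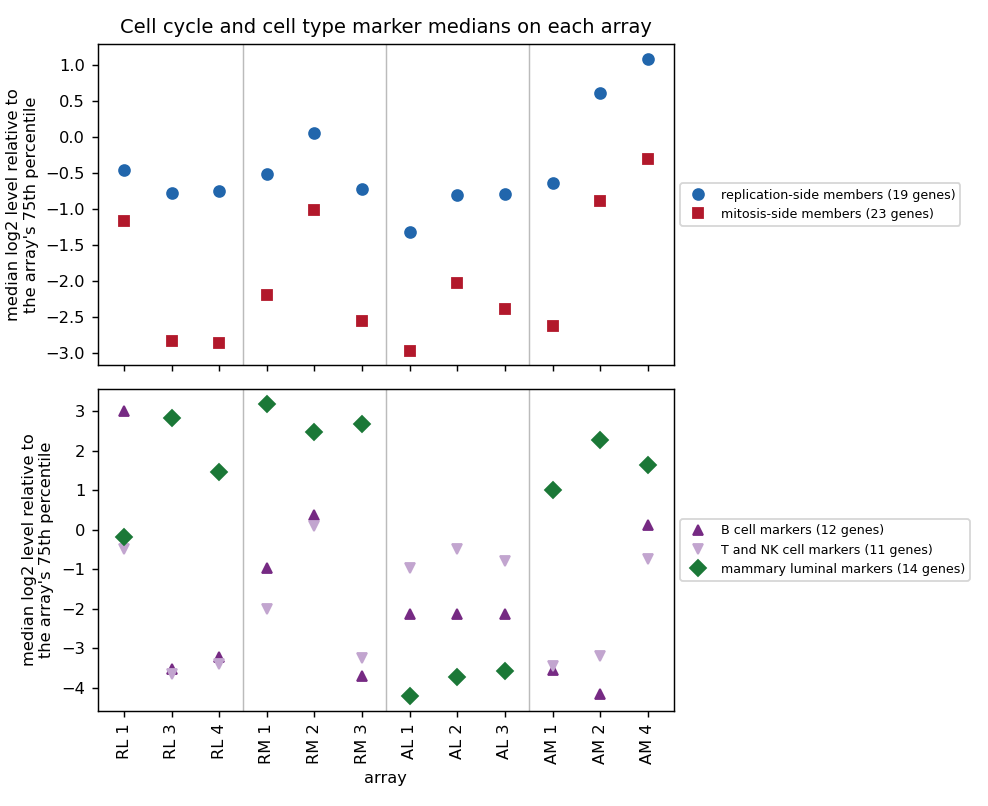
Median log2 level relative to the array's 75th percentile on each array, for the replication and mitosis sides of the cell cycle genes (upper panel) and for B cell, T and NK cell and mammary luminal markers (lower panel). Cell cycle medians are high on adult mammary replicates 2 and 4, while lymphocyte markers are high on replicate 4 and low on replicate 2.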

How the data were processed

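Total RNA of 12 mouse samples was amplified, labelled with Cy3 and hybridised to single-colour Agilent arrays, per the labels' protocols. Per the file headers, the deposited processed signal is an intensity after background subtraction and detrending by Feature Extraction 10.5.1.1, whereas version 10.1 is named per the submitters' processing notes. The authors' deposited table holds log2 values whose columns rank as the raw median signal and have medians of 6.78 to 6.79. How these were normalized is not given in the sources that were used.

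Spots of a probe were averaged without outlier spots, log2 processed signals were lowered by the array's 75th percentile, and the probe with the highest mean stood for a gene. Features well above background on all 3 arrays of a group were tested (24497), 301 of them with a value missing on some array. Accessions matched to RefSeq named 24836 of 41174 probes. limma 3.58.1 in R 4.3.3 fitted the group means over all 12 arrays (8 residual and 2.37 prior degrees of freedom), with two-sided p adjusted by Benjamini-Hochberg within each comparison at 0.05. The fit was tested on simulated data. The 3 arrays per group limit the precision.

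Members and lists were chosen with earlier results of these data known. Values on every array are given for members past the threshold, for a fixed panel of 19 members and for those that differed most and least within adult mammary. Up to 5 genes with the smallest adjusted p were named per pathway list. Slides were read from the file headers. Mean pixel signal is not in the columns used, so normexp background correction, with an offset of 50, used the median signal.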

Additional observations from a re-analysis of the deposited data

Results flagged for a closer look

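Pcna, the sliding clamp of DNA replication, changed unlike in the groups of the 2 organ labels. The difference of reprogrammed lung from adult lung minus the difference of reprogrammed mammary from adult mammary was 1.47 on the log2 scale (limma interaction term, adjusted p = 0.0346). Pcna averaged 2.04 ± 0.44 in reprogrammed lung and 1.36 ± 0.14 in adult lung, and 2.17 ± 0.14 in reprogrammed mammary and 2.96 ± 0.50 in adult mammary (SD, n = 3 each). Neither change passed the test on its own. The median of this difference over the 19 replication-side members was 1.37, with 17 positive, so its size was not particular to Pcna. When 1 array was left out, the Pcna value ran from 1.20 to 1.68 and its adjusted p from 0.0188 to 0.0877, and it missed the threshold for 8 of the 12 arrays left out.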

How the results depend on the processing

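Pcna, Gins2 and Tyms kept their call in adult lung against adult mammary under all 12 leave-one-out fits and the 10 other alternatives. The count of members called there was 6 with slide as a block (median difference -2.39), with 4 of them among the 10 main calls. It ran from 4 to 30 when 1 array was left out. With normexp background correction the median was -0.61 and the Chek1 difference was only 0.0154. With slide as a block, the median of reprogrammed lung minus adult mammary was -1.96. For reprogrammed mammary against adult lung, the count was 1 with no filter on dim probes, 0 with slide as a block, 7 without adult mammary replicate 4 and reprogrammed lung replicate 1 together, 11 when only the groups compared were fitted, and 0 to 7 when 1 array was left out. For reprogrammed lung against adult lung, it was 2 without that pair of arrays (Ccnf lower and Pcna higher) and 0 to 1 when 1 array was left out. The call of the organ difference was lost with no filter and with slide as a block (0 each), and the count ran from 0 to 4 when 1 array was left out. The 4, without adult mammary replicate 1, were Tyms, Rrm1, Gins2 and Cdc6, and Pcna was not among them. The causes were not tested. The other 2 comparisons had 0 calls under every alternative. Genes near background, such as Chek1, Cdc6, Aurkb and Ccnb1, are limited by signal.

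The labels name no pairing of samples with the same replicate number. Over 13 same-numbered pairs, deviations from the group means correlated at -0.53 to 0.33, and 5 were over 0.1. With 3 arrays a group, these correlations cannot decide whether the samples were paired. With a replicate block, 4 members were called in adult lung against adult mammary (Pcna, Gins2, Tyms and Tk1), 2 in reprogrammed mammary against adult lung (Gins2 and Pcna), and 0 for the organ difference.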
